A study of Mus musculus with 6 samples.

Results

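Expression of 10 genes of the NF-kB pathway was described in leukaemic bone marrow cells of mice: the subunit genes Nfkb1, Nfkb2, Rel, Rela and Relb, the inhibitor genes Nfkbia, Nfkbib and Nfkbie, the ubiquitin-editing enzyme gene Tnfaip3 and the ubiquitin ligase gene Birc3. The genes were taken by name from a deposited table of 55401 genes, all 10 were found there, and all 10 passed a filter on low values. All 6 mice carried a leukaemia driven by HoxA9 and Meis1 and had received it as a secondary transplant. In the Lym group (mice 62, 63 and 87) the animals had been given lymphoid leukaemic stem cells and the RNA came from lymphoid cells, and in the Lin- group (mice 56, 57 and 91) they had been given Lin- cells and the RNA came from Lin-cKit+ progenitors. The labels name neither the donor leukaemia of each mouse nor the animals' strain, age and genotype, and they name no vector. Each mouse gave 1 library, and values are listed in the order 62, 63, 87 for Lym and 56, 57, 91 for Lin-. Total RNA of 2 ng was used, except for Lym mouse 62 with 1 ng.

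NF-kB transcription factors are dimers of the 5 subunits, which share a Rel homology domain that binds DNA. Nfkb1 and Nfkb2 encode the precursors p105 and p100, which are processed to p50 and p52, while RelA, c-Rel and RelB carry activation domains. In resting cells the dimers are held in the cytoplasm by IkB proteins. In the canonical pathway the IKK complex phosphorylates IkB, which is then degraded, and in the non-canonical pathway the kinase NIK drives processing of p100, the partner of RelB. Several inhibitor genes are themselves targets of NF-kB, which closes a negative feedback loop. In blood, c-Rel and RelB are best known from lymphocytes and dendritic cells.

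Motifs that NF-kB can bind stood in the promoters of several of these genes, shown here because subunit and inhibitor genes are textbook targets of the factor itself. Promoter windows from RefSeq (GRCm38.p6, 250 bases before to 50 bases after a gene start) were matched for 8 of the 10 genes. The NF-kB consensus decamer, searched on both strands, occurred in windows of 5 of these 8 genes (Nfkb2, Rel, Nfkbia, Nfkbie and Tnfaip3), against 9.55% of all 27025 genes with a window. The 9-letter core GGANTTTCC, also searched on both strands and often overlapping the decamer, occurred in 3 of the 8 (Nfkb2, Nfkbia and Tnfaip3), against 1.45% of all genes. Some genes have more than 1 window, and Nfkb2 has 3. A match is a stretch of letters and was not tested as a binding site. In the lines below, each read 5′ to 3′ on the gene's strand, capitals mark the matches. For Nfkb2 and Tnfaip3 only short stretches are shown, since longer annotated forms of these genes reach across them. Further matches in both genes are left out, among them the 9-letter core of Nfkb2 at chr19:46305706-46305714. The stretch of Nfkb2 lies at chr19:46304689-46304717 (plus strand), Rel at chr11:23771026-23771086 (minus strand), Nfkbia at chr12:55492648-55492850 (minus strand), Nfkbie at chr17:45555569-45555628 (plus strand) and Tnfaip3 at chr10:19015411-19015438 (minus strand).
Nfkb2: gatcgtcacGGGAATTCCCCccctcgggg
Rel: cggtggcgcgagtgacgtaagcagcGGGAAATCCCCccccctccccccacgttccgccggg
Nfkbia: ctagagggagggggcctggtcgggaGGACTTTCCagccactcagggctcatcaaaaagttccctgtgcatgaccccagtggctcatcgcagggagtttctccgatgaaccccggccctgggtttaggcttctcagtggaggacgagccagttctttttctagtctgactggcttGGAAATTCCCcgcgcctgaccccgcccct
Nfkbie: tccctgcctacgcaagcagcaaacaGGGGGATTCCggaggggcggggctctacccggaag
Tnfaip3: gactGGAATTTCCatcGGAAATCCCCct

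Reads assigned to genes came to 18537700 to 22634286 per library. On the first principal component of the 500 most variable genes, which held 61.8% of their variance, Lym mouse 87 (score 26.4) lay inside the range of the Lin- libraries (3.86 to 36.4), while Lym mice 62 and 63 stood apart at -52.5 and -32.9. Of 12 markers of early B and lymphoid cells 3 passed the filter on low values, and 2 of these, Il7r and Rag2, were higher in Lym at an unadjusted limma p under 0.05. In normalized counts Il7r, the interleukin-7 receptor gene, stood at 424, 82.8 and 14.3 for Lym and at 2.65, 3.52 and 4.13 for Lin-, without overlap, while the groups of Rag2 overlapped. Dntt stood at 216, 29.1 and 4.76 for Lym with no read in any Lin- library, whereas the highest library had 4.48 for Cd79a and 0.95 for Pax5. The summed marker reads, scaled to the reads assigned in each library (CPM), were 73.8, 14.0 and 15.5 CPM for the Lym mice and 22.1, 4.95 and 15.0 for the Lin- mice. Most of the Lin- sums came from Cd79b, and without that gene, left out after its values were seen, the sums were 61.7, 12.7 and 3.47 CPM for Lym against 1.16, 2.65 and 1.20. The groups are named here by their labels.

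Per length, Nfkbia was the most abundant of the 10 genes and Relb the least. Levels in this paragraph are RPKM (reads scaled to exon length in kilobases and to the reads assigned in the library). Only on this scale are the levels of the 10 genes compared with each other. Nfkbia, which encodes IkBα, ranged from 29.3 to 42.2 over the 6 libraries, above Rela in every library. Rela, the main activating subunit of the canonical pathway, ranged from 22.6 to 28.9, and Nfkb1 from 14.7 to 19.95, above Nfkbib in all 6 libraries. Below them Nfkbib (10.2 to 15.0), Birc3 (8.52 to 15.1) and Rel (8.26 to 15.4) had overlapping ranges and changed places between libraries, so these 3 were not separated. The same held for Nfkbie (3.50 to 7.91) and Nfkb2 (4.11 to 6.15). Tnfaip3 followed at 1.94 to 2.95, and Relb, the DNA-binding partner of p52, came last in all 6 libraries at 0.41 to 1.95, with 32 to 142 reads per library. Of the summed level of the 5 subunits, Rela held 43.7% ± 3.01 in Lym and 45.1% ± 2.55 in Lin-, Nfkb1 27.6% ± 2.99 and 28.6% ± 1.20, and Relb 2.00% ± 0.83 and 1.08% ± 0.30 (SD, n = 3 each).

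**Figure D1:**
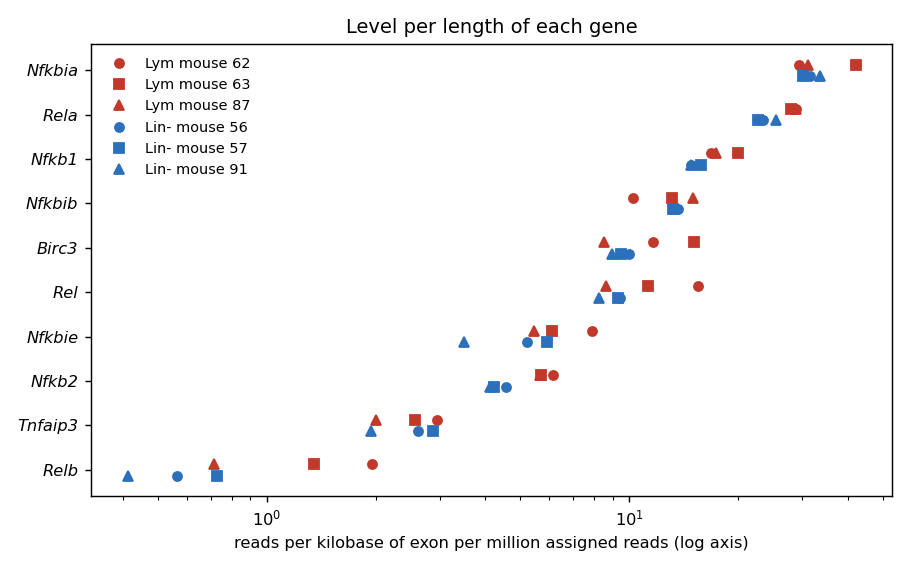
Level of each gene in every library, in RPKM (reads scaled to exon length in kilobases and to the reads assigned in the library) on a log axis, with genes in rows from highest to lowest mean and 1 point per mouse (red Lym, blue Lin-). Nfkbia and Rela lie at 22.6 or above in every library, and Relb spans 0.41 to 1.95.

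The comparison of Lym with Lin- asks how this pathway stands in the lymphoid cells against the progenitor cells of the same kind of leukaemia. Values from here on are normalized counts per library, and differences are those of log2(normalized count + 2), Lym minus Lin-, with standard errors (SE) and p-values from limma that were adjusted by Benjamini-Hochberg over all 14273 genes tested. In bulk RNA, fewer cells of a type and less RNA per cell cannot be told apart. All 5 subunit genes had higher means in Lym. The adjusted p of every one was above 0.05, so none of these differences was called.

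Nfkb1, which encodes p105 and p50 (chromosome 3, 135584655 to 135691547 in GRCm38), stood at 4269.5, 4992 and 4259 for the Lym mice and at 3518, 3797 and 3678 for the Lin- mice. All 3 Lym libraries lay above all 3 Lin- libraries, and the difference was 0.30 ± 0.11 (SE, limma adjusted p = 0.457), a ratio of means of 1.23. Nfkb2, which encodes p100 and p52 (chromosome 19, 46304320 to 46312385), stood at 592, 542 and 528 against 414, 385 and 389. Its groups were apart as well, at 554 ± 33.9 in Lym and 396 ± 15.4 in Lin- (SD, n = 3 each), and the difference was 0.48 ± 0.15 (SE, limma adjusted p = 0.434). Exons of the antisense gene model AC114539.1 cover 11.6% of the exon bases of Nfkb2, and whether counting used the strand is not given in the sources used here. That gene stood at 223, 339 and 223 in Lym and 303.5, 283 and 305 for Lin-, overlapping between the groups, and its part in the values of Nfkb2 was not tested.

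Rela (chromosome 19, 5637483 to 5648130) stood at 1865, 1780.3 and 1805 for the Lym mice and at 1423, 1383 and 1607 for the Lin- mice. The groups did not overlap, with the smallest gap between Lym mouse 63 and Lin- mouse 91, and the difference was 0.31 ± 0.12 (SE, limma adjusted p = 0.46). For Nfkb1, Nfkb2 and Rela the library of Lym mouse 87 thus lay with the other Lym libraries and not within the Lin- range. Without that mouse their differences were 0.33, 0.51 and 0.31, close to those with it.

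**Figure D2:**
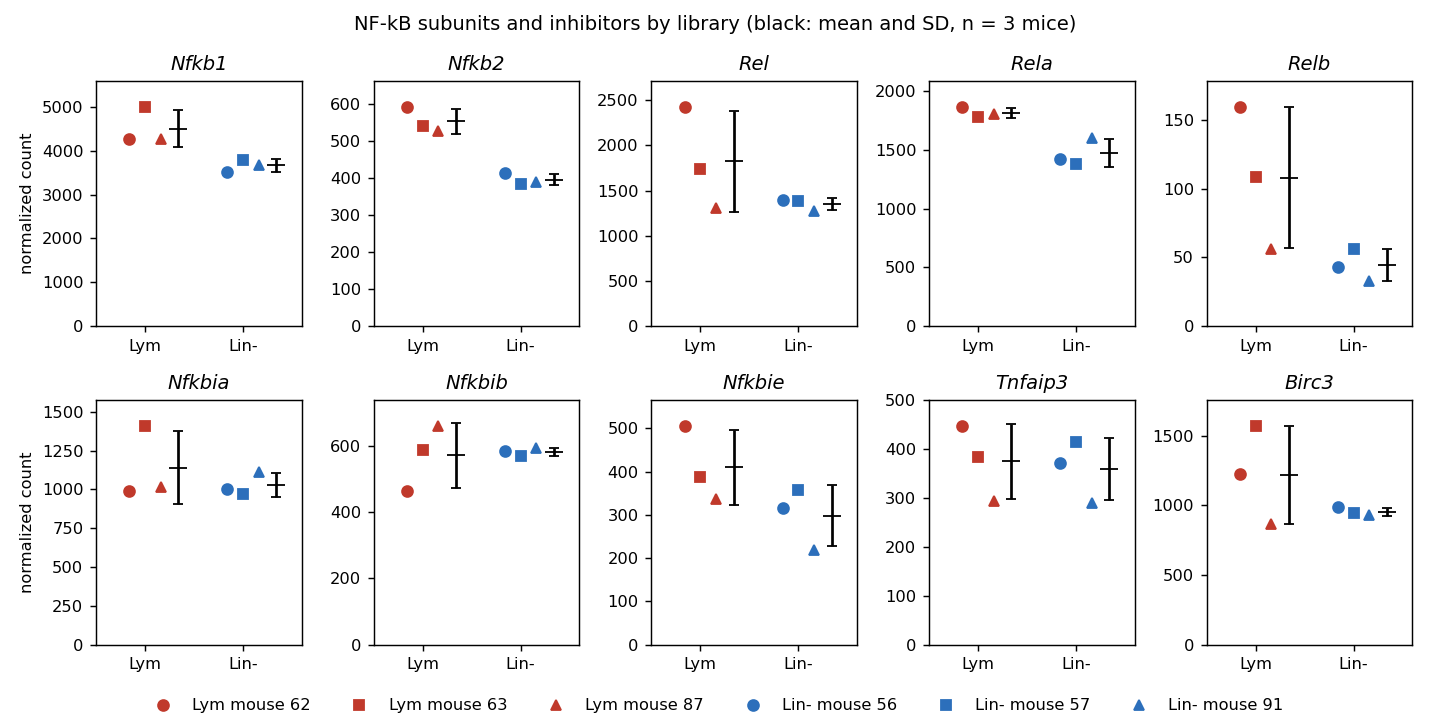
Normalized count of each gene (vertical axes, from 0) in the 3 Lym libraries (red) and the 3 Lin- libraries (blue), 1 point per mouse, with the mean and SD of each group in black. The groups do not overlap for Nfkb1, Nfkb2 and Rela, and they overlap for the other 7 genes.

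Relb and Rel, in contrast, had their high values in Lym mice 62 and 63 alone. Relb (chromosome 7, 19606217 to 19629438) stood at 159, 109 and 56.2 for the Lym mice and at 43.2, 56.3 and 33.0 for the Lin- mice. Lym mouse 87, with 59 reads, and Lin- mouse 57, with 64, had almost the same normalized count. The difference was 1.16 ± 0.44 (SE, limma adjusted p = 0.458), a ratio of means of 2.44, and without Lym mouse 87 it was 1.56 ± 0.40 (limma adjusted p = 0.0431). Rel, which encodes c-Rel (chromosome 11, 23736847 to 23770970), stood at 2421, 1739 and 1309 for Lym and at 1396, 1379.9 and 1272 for Lin-. Lym mouse 87 lay within the Lin- range, and the difference was 0.39 ± 0.21 with that mouse (limma adjusted p = 0.54) and 0.61 ± 0.16 without it (limma adjusted p = 0.0421). The differences were lowest when Lym mouse 62 was left out, at 0.83 for Relb and 0.16 for Rel.

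The summed markers of mast cells and basophils, among other lists, had the same order among the Lym libraries as Relb and Rel. Their reads came to 1082, 343 and 102 CPM for the Lym mice and to 78.2, 66.5 and 50.03 for the Lin- mice, carried by Cpa3 and Gata2 with 2 of the 6 markers higher at a limma p under 0.05. Mcpt8 (140, 209 and 194 against 176, 162 and 219.7 in normalized counts) and Ms4a2 (90.8, 8.95 and 21.9 against 22.1, 42.2 and 7.22) did not have that order. Fcer1a, a defining marker of these cells, had no read in any library, and Prss34 reached at most 2.86. Markers of early B cells were highest in Lym mouse 62 too, at the values given above. The order of Relb and Rel among the Lym libraries also held for the summed markers of Lin-cKit+ progenitors (6819, 5735 and 4806 CPM, against 5115, 8283 and 5088 for Lin-). It held for those of stromal and endothelial cells (449, 395 and 329.5 CPM, against 252, 303 and 269). In that list only Pecam1 passed the filter on low values, and the highest normalized count of any other gene was 15.7, for Col1a2 in Lym mouse 62. The order held as well for the summed markers of T and NK cells (6.99, 1.78 and 0.70 CPM). It did not hold for those of neutrophils, of monocytes and macrophages or of erythroid cells. The part of any of these lists in the values of Relb and Rel was not tested. 

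Of the 3 IkB genes none had groups that were apart. Nfkbia, whose product IkBα retains RelA dimers in the cytoplasm (chromosome 12, 55489410 to 55492647), stood at 993, 1409.9 and 1017 for the Lym mice and at 1003, 969 and 1112 for the Lin- mice. Only Lym mouse 63 lay above the Lin- range, and the difference was 0.13 ± 0.17 (SE, limma adjusted p = 0.792) and -0.031 without that mouse. Nfkbib, which encodes IkBβ (chromosome 7, 28758251 to 28767512), stood at 465, 589.7 and 662 against 585, 569 and 594. Here Lym mouse 62 was the lowest and Lym mouse 87 the highest of all 6, and the difference was -0.041 ± 0.172 (SE, limma adjusted p = 0.946). Antisense exons of Ccer2 cover 14.5% of the exon bases of Nfkbib, but Ccer2 reached at most 3.81 in any library, and Sirt2 shares 1.94%. Nfkbie, which encodes IkBε (chromosome 17, 45555703 to 45563169), stood at 506, 387 and 337 against 315, 358 and 219.7. Lym mice 62 and 63 lay above the Lin- range and Lym mouse 87 within it, with a difference of 0.47 ± 0.25 (SE, limma adjusted p = 0.533), which was 0.27 without Lin- mouse 91 and 0.60 ± 0.25 without Lym mouse 87 (limma adjusted p = 0.174).

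Tnfaip3 and Birc3 act upstream of the IKK complex. Tnfaip3 encodes A20, which removes activating ubiquitin chains from signalling adaptors and is itself induced by NF-kB (chromosome 10, 19000910 to 19015657). It stood at 447, 383 and 293 for the Lym mice and at 372, 414 and 289 for the Lin- mice, with a difference of 0.058 ± 0.227 (SE, limma adjusted p = 0.939). In both groups the spread between mice was larger than the gap between the means of 375 and 358. Birc3 encodes cIAP2, a ubiquitin ligase of the TNF receptor complex that also takes part in the degradation of NIK (chromosome 9, 7848699 to 7873186). It stood at 1221, 1571 and 867 for Lym and at 985, 943 and 927 for Lin-. Lym mice 62 and 63 lay above the Lin- range and Lym mouse 87 below it, so that the SD was 352 in Lym and 30.02 for Lin-, and the difference was 0.32 ± 0.21 (SE, limma adjusted p = 0.598). Without Lym mouse 87 it was 0.54 ± 0.15 (SE, limma adjusted p = 0.0508), and without Lym mouse 63 it was 0.11 ± 0.19 (SE, limma adjusted p = 0.903).

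**Figure D3:**
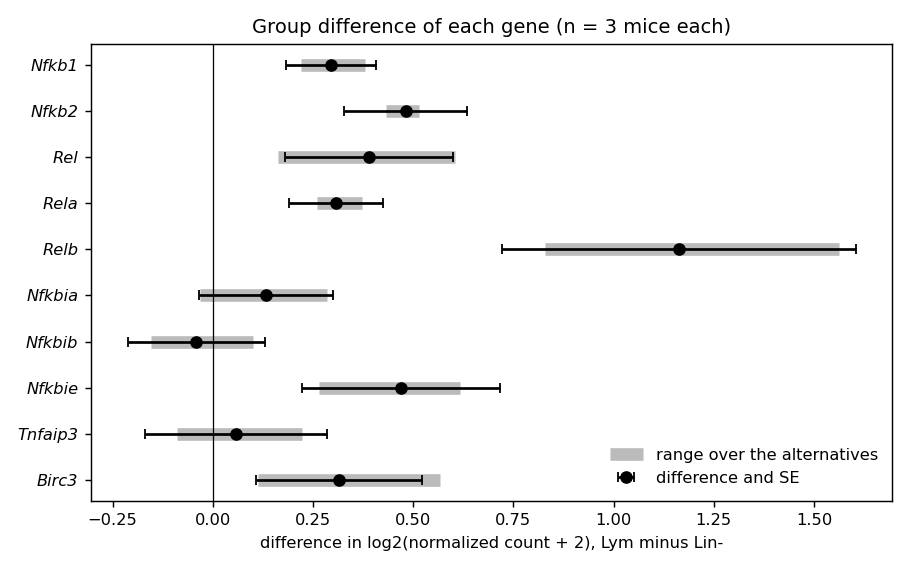
Difference in log2(normalized count + 2), Lym minus Lin-, for each gene (n = 3 mice each), with black points and bars for the difference and its SE and grey bars for the range over all alternative settings. The 5 subunit genes and Nfkbie and Birc3 stay above 0 in every setting, while Nfkbia, Nfkbib and Tnfaip3 cross 0.

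Counted over the 10 genes, 9 had a difference above 0, against 48.7% of all genes tested, and the median difference was 0.31 against -0.01 over all genes. None of the 10 had a limma adjusted p under 0.05, as for all genes (0%, none of 14273), while 4 of the 10 had an unadjusted limma p under 0.05, as did 1459 of all genes. With edgeR on recovered reads also none of the 10 was called and 4 had an unadjusted p under 0.05. Of all genes none was called there and 10.1% had such a p. With DESeq2, run without the filter on 31604 genes, these counts were 0 and 2 of the 10. Of all genes 203 were called there and 5.92% had such a p. The 4 genes were Nfkb1, Nfkb2, Rela and Relb, each higher in Lym, where 5.96% of all genes were so. No gene of the 10 had such a p in the other direction, against 4.27%. The groups did not overlap in 3 of the 10, all higher in Lym, against 8.49% of all genes higher and 7.08% lower. These counts turned on single mice. The 4 became 7 when Lym mouse 87 was left out, 2 when Lym mouse 62, Lin- mouse 57 or Lin- mouse 91 was, and 1 when Lym mouse 63 or Lin- mouse 56 was, and the 3 became 7 when Lym mouse 87 and 5 when Lin- mouse 57 was left out. The share of all genes moved too: 13.3% were higher at that p without Lym mouse 87, and 3.12% to 5.23% without any other single mouse. Groups that did not overlap, higher in Lym, made up 21.7% of all genes when Lym mouse 87 was left out and 14.4% when Lin- mouse 57 was. The 10 genes are linked in textbook models, so the counts are a description.

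Without Lym mouse 87, 2 of the 10 genes (Rel and Relb) had an adjusted p under 0.05 in limma, both higher in Lym, against 5.48% of all genes. With limma weights that give the more variable libraries less influence none of the 10 was called, against 2.98% of all genes called as higher. The authors had run DESeq2 on these libraries, and in the authors' deposited table the lowest adjusted p among the 10 was 0.425 for Relb, with a log2 fold change of 0.76 ± 0.28 (SE) turned to Lym minus Lin-. None of the 10 was called in the authors' deposited table, against 0.32% of the 31604 genes with a p-value.

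Ratios between genes within a library do not depend on how libraries were scaled, and 4 were compared with an exact two-sided permutation test, which with 3 mice against 3 cannot give a p below 0.1. The ratio of Relb to Rela, which sets a non-canonical beside a canonical subunit, was 0.086, 0.062 and 0.032 for the Lym mice and 0.032, 0.042 and 0.022 for the Lin- mice. The mean log2 ratio was 0.86 higher in Lym (exact permutation p = 0.2, 0.4 adjusted over the 4 ratios), with overlapping groups, and 0.54 without Lym mouse 62 to 1.25 without Lym mouse 87. Without the added 2 it was 0.89 higher. Nfkb2 to Nfkb1 was 0.139, 0.109 and 0.124 against 0.118, 0.102 and 0.106, and its mean log2 ratio was 0.19 higher (exact permutation p = 0.2, adjusted 0.4), and 0.10 without Lym mouse 62 to 0.28 without Lym mouse 63. Per length Nfkbia lay above Rela in every library, as given above. The ratio of the inhibitor gene Nfkbia to Rela, here not per length, was within 0.692 to 0.705 in all 3 Lin- mice and at 0.533, 0.792 and 0.564 for the Lym mice. Its mean log2 ratio differed by -0.17 (exact permutation p = 0.4, adjusted 0.533), and the Lym values lay on both sides of the Lin- values. It ran from -0.35 without Lym mouse 63 to -0.066 without Lym mouse 62. Rel to Rela ran from 0.726 in Lym mouse 87 to 1.30 in Lym mouse 62, with 0.792 to 0.997 in Lin- (difference of log2 means 0.083, exact permutation p = 1).

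The rest of the pathway, 6 lists with 107 genes of which 75 were tested, was close to evenly divided. Of the 75, 38 had a difference above 0, with a median of 0.013, and none had a limma adjusted p under 0.05. At an unadjusted limma p under 0.05, 6 genes (8.0%) were higher and 2 (2.67%) lower, beside the 5.96% and 4.27% of all genes. These 8 became 20 when Lym mouse 87 was left out, where 25.9% of all genes had such a p in either direction, and 2 to 5 when any other single mouse was, where 4.99% to 8.26% had. Among kinases, 8 of 11 had a difference above 0 and Map3k14, which encodes NIK of the non-canonical pathway, stood at 812, 661 and 553 for the Lym mice and at 494, 529 and 481 for the Lin- mice. Its groups were apart, with a difference of 0.41 ± 0.18 (SE, limma adjusted p = 0.485). The 2 genes of this list with the highest mean normalized counts (not scaled to length), Tab2, an adaptor of the kinase TAK1, and Ikbkb, the catalytic IKKβ, had differences of 0.082 and 0.066. 

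Among 20 tested adaptors and ubiquitin ligases 11 had a difference above 0 and 9 below. Rnf31, the catalytic subunit of the linear ubiquitin ligase, stood at 761, 762 and 733 for Lym against 609.6, 621 and 558 for Lin-, and Tank, an adaptor of TRAF proteins, at 1179.8, 1012 and 1209 against 1504, 1730.2 and 1360.4. The groups of both genes were apart, in opposite directions, with differences of 0.34 ± 0.14 (SE, limma adjusted p = 0.467) and -0.43 ± 0.14 (SE, limma adjusted p = 0.441). Ripk1 and Irak1, highest in mean normalized count among the adaptors, differed by 0.017 and -0.018. Of the other inhibitors, 5 of 12 had a difference above 0. Nfkbiz, an inducible nuclear IkB protein, stood at 221, 311 and 109 for Lym against 51.2, 136 and 74.3 for Lin-, overlapping through Lym mouse 87 and Lin- mouse 57, with a difference of 1.26 ± 0.47 (SE, limma adjusted p = 0.452). Itch, a ubiquitin ligase that works with A20, differed by 0.10.

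Of the receptors that signal to NF-kB, 10 of 14 tested genes had a difference below 0, with a median of -0.26, and Tlr7, Tnfrsf13b, Tlr9 and Tnfrsf1a were above 0. Cd14, the co-receptor for bacterial lipopolysaccharide on monocytes, stood at 2.24, 34.7 and 26.7 for the Lym mice and at 74.1, 53.7 and 66.0 for the Lin- mice, a difference of -2.00 ± 0.78 (SE, limma adjusted p = 0.461). The value of Lym mouse 62 was 2 reads, under the floor of 3 reads, and without that mouse the difference was -1.03. Cd14 is also 1 of 11 monocyte and macrophage markers, whose summed reads were 463 to 654 CPM in Lym and 805 to 904 for Lin-, without overlap, while C1qa had no read in any library. Of these markers 7 were tested, and the groups were apart for 2, Cd14 and Ly6c2 (difference -1.22). The groups of Csf1r and Adgre1 overlapped, with differences of -0.086 and -0.14. The part of such cells in the receptor values was not tested. Tnfrsf13b, the receptor TACI for BAFF and APRIL, stood at 2923, 3167 and 2409.7 against 2203, 2202 and 2165 (0.36 ± 0.13, SE, limma adjusted p = 0.451). Without Lym mouse 87 its difference was 0.47 (limma adjusted p = 0.0285), where 5.48% of all genes were called as higher. Tnfrsf1a, the main TNF receptor, differed by 0.013. Of 11 ligands 4 were tested, 2 in each direction. Tnf itself stood at 68.4, 115 and 183 for Lym and at 116, 175 and 162 for Lin-, with a difference of -0.39 ± 0.38 (SE, limma adjusted p = 0.732), and Tnfsf14 at 127, 99.6 and 144 against 122, 112 and 83.5.

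Among 30 genes known as targets of NF-kB 14 were tested, and 8 of them had a difference above 0 (median 0.13). Irf1, an interferon regulatory factor, stood at 1512, 1270 and 879 for the Lym mice and at 612, 891 and 624 for the Lin- mice. Lym mouse 87 lay just below Lin- mouse 57, and the difference was 0.77 ± 0.23 (SE, limma adjusted p = 0.423). Zfp36, which encodes an mRNA-destabilizing protein, stood at 1165, 1340.5 and 754 against 555, 802 and 791 (0.58 ± 0.24, SE, limma adjusted p = 0.47). The anti-apoptotic genes Xiap and Cflar, highest in mean normalized count among the targets, differed by 0.17 and 0.43, with adjusted p-values of 0.696 and 0.506 in limma. In Nfkbiz, Irf1 and Zfp36, as in Relb, the values of Lym mice 62 and 63 were above all Lin- values and that of Lym mouse 87 was not. Without Lym mouse 87 the differences were 1.68 for Nfkbiz, 0.99 for Irf1, 0.82 for Zfp36 and 0.66 for Cflar, with adjusted p-values of 0.0383, 0.0165, 0.0287 and 0.0231 in limma. In that setting 5.48% of all genes were called as higher. Nfkbiz, Irf1 and Zfp36 had been named for their p-values in these same data.

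Over the 6 libraries Relb and Nfkbie had the largest spread of the 10 genes on the log2 scale, with an SD of 0.83 and 0.39. The genes closest to Relb, by the root mean square difference of log2 values centred per gene over the 6 libraries, were Sox4 (0.09), Osbpl5 (0.12), Maml3 (0.14) and Stat3 (0.20), out of 10969 named genes. Stat3, a cytokine-activated transcription factor, stood at 5205, 4513 and 2647 for the Lym mice and at 2055, 2407 and 1735 for the Lin- mice. The genes closest to Nfkbie were Setd7 (0.047), Gcnt1 (0.053), Arhgap25 (0.076) and Irf9 (0.091). Among the 10 genes themselves the closest pair was Nfkb1 and Rela (0.119), nearly equalled by Nfkb2 and Rela (0.123). The distance is not scaled to spread, so genes that vary little lie close to each other. Nfkb1 and Rela had SDs of 0.185 and 0.184. These distances describe 6 libraries and carry no test.

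**Figure D4:**
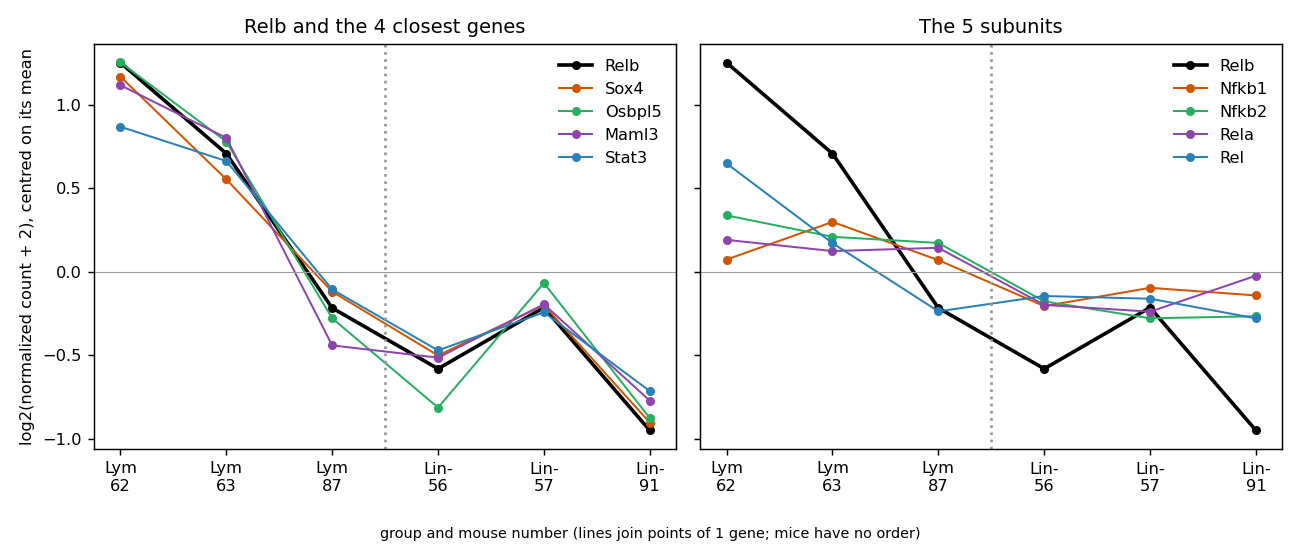
Left, Relb and the 4 genes closest to it, and right, the 5 subunit genes, as log2(normalized count + 2) centred on each gene's mean (vertical axis) in each library (horizontal axis, group and mouse number). Relb runs from above 1 in Lym mouse 62 to near -1 in Lin- mouse 91, while Nfkb1, Nfkb2 and Rela form a small step between the groups.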

How the data were processed

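Per the submitters' processing notes, trimming used Trim Galore 0.6.4, and STAR 2.6.1d, featureCounts 1.6.4 and a DESeq2 of unstated version followed, with GRCm38.p6 as the build. The annotation release and the use of strand are not given in the sources used here. For each library the authors deposited a signal: the count of a gene over the library's size factor. Whole reads were recovered, since 100% of values up to 10000 reads were whole multiples (tolerance 0.01) of the value of 1 read. Further columns are, per the file headers, a log2 fold change with standard error, a Wald score and a p-value of the authors' comparison, whose sign was positive for Lin- and was turned here. A floor of 3 reads equals a normalized count of 2.64 to 3.36 and covers counting error only.

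limma 3.58.1 (R 4.3.3, trend option) was fitted across all genes with a normalized count of at least 10 in at least 3 libraries, on log2(value + 2), with a threshold of 0.05 after Benjamini-Hochberg adjustment. edgeR 4.0.16 (TMM) and DESeq2 1.42.0 on recovered reads, limma-voom, other scalings, pseudocounts, library weights, no filter and leaving out each mouse were alternatives. DESeq2 was run on all 31604 genes with a read, without the filter. The fits were tested on simulated data. All 10 gene identifiers matched GENCODE M21 by version. The named genes are the 10 genes, from each pathway list up to 4 with an unadjusted p under 0.05 and the 2 with its highest mean normalized counts, and the 4 genes closest to the 2 most variable of the 10. The genes and lists were chosen with earlier results of these data known. Mouse numbers differ between the groups, so nothing pairs them. Whether mice shared a donor is not stated, and p-values measure the spread between these mice.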

Additional observations from a re-analysis of the deposited data

How the results depend on the processing

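Over the alternatives, the differences of Nfkb1, Nfkb2, Rel, Rela, Relb, Nfkbie and Birc3 were above 0 in all 15, and the median over the 10 genes ranged from 0.27 to 0.42 when a mouse was left out. The count of all genes called, 0, became 203 with DESeq2, 1 with a pseudocount of 8, 5 without the filter, 660 with library weights and 0 to 1366 when a mouse was left out, the highest without Lym mouse 87 and 1 without Lin- mouse 91. Of the 10 genes, 0 to 2 were called when a mouse was left out. The 4 with an unadjusted p under 0.05 became 2 with DESeq2, 7 with library weights and 1 to 7 when a mouse was left out (2 without Lym mouse 62, 1 without Lym mouse 63, 7 without Lym mouse 87, 1 without Lin- mouse 56, 2 without Lin- mouse 57 and 2 without Lin- mouse 91). Of all genes tested, 10.2% had such a p (1459 of 14273), against 26.3% with library weights, 25.9% without Lym mouse 87 and 4.99% to 8.26% without any other mouse. With DESeq2 it was 5.92%, but of 31604 genes (1872), since that fit was made without the filter. The 3 whose groups did not overlap became 3 to 7 (7 with Lym mouse 87 left out, 5 with Lin- mouse 57 left out). The 8 pathway genes at that p became 19 with library weights and 2 to 20 when a mouse was left out. Signs turned in some fits that left out a mouse. Nfkbib ranged from -0.15 (without Lym mouse 87) to 0.10 (without Lym mouse 62). Tnfaip3 ranged from -0.088 (without Lin- mouse 91; -0.080 without Lym mouse 62) to 0.22 (without Lym mouse 87), and Nfkbia from -0.031 (without Lym mouse 63) to 0.22 (without Lym mouse 62). The log2 ratio of Rel to Rela ranged from -0.13 (without Lym mouse 62) to 0.29 (without Lym mouse 87) and was -0.024 when Lin- mouse 91 was left out. Leaving out a mouse leaves fewer samples. The count of genes called was highest without Lym mouse 87, whose library also had the lowest of the library weights (0.361). The cause of the changes was not tested in any setting. No paired analysis was possible because the groups share no mouse number. Relb, with 32 to 142 reads per library, is the gene whose values depth limits most.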

Other observations

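Tax1bp1, which encodes an adaptor that brings A20 to its substrates, had the highest mean normalized count among the other inhibitor genes (not scaled to length) and differed between mice in a way that crossed the labels. It stood at 37104 in Lym mouse 87 and 38495 in Lin- mouse 91, while the other 2 Lym libraries (mice 62 and 63) had 13313 and 11416 and the other 2 Lin- libraries (mice 56 and 57) 13364 and 13758. The group difference was -0.11 ± 0.51 (SE, limma adjusted p = 0.953). The gene lies on chromosome 6 from 52713729 to 52766780 in GRCm38. A20 itself (Tnfaip3) was lowest in these same 2 mice, at 293 and 289 against 372 to 447 in the other 4. This was not particular to Tnfaip3. Rel (1309 and 1272 against 1379.9 to 2421) and Birc3 (867 and 927 against 943 to 1571) were lowest in these 2 mice as well. Both libraries also had the highest scores on the first principal component, at 26.4 and 36.4. The 2 mice were picked out by the values of Tax1bp1, so no test was made between them and the others.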
